A study of Homo sapiens with 6 samples.

Results

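Chondroitin sulfate is made by a small set of Golgi enzymes, and 10 of their genes were examined in cells that overexpress SHC4. They were CHST15, CHST3, CHST7, CHST11, CHST12, CHST13, CHST14, CHSY1, CHPF and CSGALNACT1, out of 28181 genes listed in the normalized count files. The set was chosen by enzyme role around CHST15, which had been picked because of its difference in the same contrast, so differences of these genes are given as descriptions. No p-value is given for them, and where they are among the genes called, the count is a description read only beside the share of all genes called. A value was found for 9 of the 10 genes, and all 9 passed the minimum mean normalized count of 1. CHST13, a chondroitin 4-O-sulfotransferase, is not analysed here.

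RNA was sequenced from UE7T-9, a line of human mesenchymal stem cells from bone marrow that telomerase (hTERT) and the E7 protein of human papillomavirus have made immortal. The 3 UE7T-9 SHC4 libraries came from cells infected with a lentivirus that drives the SHC4 coding region from a CMV promoter under puromycin selection. SHC4 is an adaptor protein that links receptor tyrosine kinases to Ras signaling. According to the methods, the 3 UE7T-9 Cont libraries came from cells infected with a GFP vector of the same kind, also under puromycin selection. Their sample labels instead read Nontarget and WT. Below, these groups are also called SHC4 cells and controls. The labels number the libraries of a group as biological replicates and speak of clones, without saying whether each library was a separate clone, infection or culture. The p-values below therefore measure the spread between these libraries, which may be technical. All 6 libraries were bulk RNA, in which fewer cells expressing a gene and less RNA per cell cannot be told apart.

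A chondroitin sulfate chain starts on a short linker sugar sequence attached to a serine of a core protein. CSGALNACT1 adds the first N-acetylgalactosamine (GalNAc) that commits the linker to chondroitin rather than heparan sulfate. The chain is then extended with alternating glucuronic acid and GalNAc by a polymerase made of CHSY1 and partners such as CHPF. Sulfotransferases decorate it with sulfate from the donor PAPS. CHST11, CHST12 and CHST13 add sulfate at carbon 4 of GalNAc, CHST14 does so in dermatan sulfate, and CHST3 and CHST7 add it at carbon 6. CHST15 adds a further sulfate at carbon 6 of GalNAc that already carries one at carbon 4, which gives the disulfated unit called chondroitin sulfate E. In bone marrow stroma and cartilage these chains bind water, growth factors and cytokines, and the sulfate pattern sets which proteins bind.

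The upstream sequences of CHST15 and CHST7 are shown because these were the 2 enzymes whose libraries did not overlap between the groups. Each run gives the 250 bases before the RefSeq transcript start on GRCh38.p14, 5′ to 3′ on the strand of the gene, and capitals mark GGGCGG or its reverse complement CCGCCC, the GC box that SP and KLF factors bind. The CHST15 window is chr10:124093599-124093848 on the minus strand and the CHST7 window is chrX:46573515-46573764 on the plus strand.
CHST15: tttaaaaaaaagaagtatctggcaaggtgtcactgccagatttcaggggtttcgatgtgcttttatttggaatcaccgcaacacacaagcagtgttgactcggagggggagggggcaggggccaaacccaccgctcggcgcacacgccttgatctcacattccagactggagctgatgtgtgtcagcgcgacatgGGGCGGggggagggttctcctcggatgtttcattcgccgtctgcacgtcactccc
CHST7: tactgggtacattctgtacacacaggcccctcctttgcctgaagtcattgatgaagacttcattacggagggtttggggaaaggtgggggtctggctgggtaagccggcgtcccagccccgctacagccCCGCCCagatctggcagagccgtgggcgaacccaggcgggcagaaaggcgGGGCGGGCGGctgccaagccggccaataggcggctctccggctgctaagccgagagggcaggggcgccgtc
The CHST15 window held 1 GC box, with its first base at position -55 from the start. The CHST7 window held 3, at -121, -71 and -67, of which the last 2 overlap. CHST15 had 14 CG dinucleotides and a GC content of 55.6%, the lowest GC content among the 12 windows of 9 members with a RefSeq entry. CHST7 had 17 CG dinucleotides and a GC content of 65.6%. The median window of all 35116 RefSeq starts had 11 CG dinucleotides. On either strand, GGGCGG was found in 10 of the 12 windows and in 42.6% of all windows. The STAT palindrome TTCNNNGAA was in 0 of the 12 and in 6.57% of all windows, and the AP-1 palindrome TGANTCA was in 2 of the 12 and in 6.57% of all windows. TATAAA on either strand was in 0 of the 12 and in 10.7% of all windows. These are matches of letters in a short window. No entry was matched for CSGALNACT1.

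The libraries held 18144993 to 27721397 recovered reads, and 3 reads corresponded to a normalized count between 2.50 and 3.53. SHC4 itself was at 56.5, 157 and 130 in the controls and at 134870, 119166 and 155006 in SHC4 cells, in the direction of the labels. Control replicate 1 stood apart from its group, since its log2 values correlated more closely across genes with SHC4 replicate 1 (Pearson's r 0.975) than with control replicate 2 (0.967) or replicate 3 (0.962). Each enzyme is therefore also given without control replicate 1 and without replicate 1 of both groups. The mesenchymal markers ENG, NT5E, THY1 and PDGFRB were abundant in every library, with sums of 29431 to 33001 in the controls and 33408 to 36280 in SHC4 cells. Of these, PDGFRB was higher in SHC4 cells without overlap (1487 to 4122 against 5178 to 6635). The 6 markers of other cells with values (PTPRC, CD34, CD14, HLA-DRA, PECAM1 and EPCAM) summed to 212 to 395 in the controls and 270 to 343 in SHC4 cells. Among them, PTPRC and EPCAM were at or near 0 in every library (at most 6.82 and 4.92). The others were detected in every library, CD34 at 39.6 to 52.7, CD14 at 52.7 to 88.3 and HLA-DRA at 72.8 to 262. PECAM1 was at 7.80 to 12.8 in the controls and 9.67 to 38.4 in SHC4 cells.

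CHST15 (ENSG00000182022, GRCh38 chr10:124007666-124093607, minus strand) was at a normalized count of 0.975, 1.18 and 0.984 in control replicates 1, 2 and 3. It was at 88.8, 54.9 and 57.1 in SHC4 replicates 1, 2 and 3. Every control library held a single CHST15 read, and the SHC4 libraries held 101, 66 and 49 reads, so the gene was at the floor of detection in the controls and low but present in SHC4 cells. The group means were 1.05 ± 0.114 and 66.9 ± 18.9 (SD, n = 3 each). In total, 3 reads stood against 216, and scaled by library the ratio was 65.1 (exact 95% interval 22.0 to 318, which covers counting error only). On log2(normalized count + 1), which understates changes from such low counts, the difference was 5.02 with a standard error of 0.44 and a 95% interval from 4.04 to 6.0. It was 5.0 without control replicate 1 and 4.78 without replicate 1 of both groups, so the size did not rest on the libraries that stood apart.

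CHST15 was the only 1 of the 9 enzymes called higher by limma, which asked for an adjusted p below 0.05 with a log2 fold change above 1, and 0 were called lower. Over all 23040 genes tested, 12 (0.0521%) were called higher and 2 (0.00868%) lower. The DESeq2 test on the recovered reads, with the same 2 thresholds, called 1 of the 9, CHST15, against 2.2% of its 16153 genes in either direction. By a DESeq2 adjusted p below 0.05 alone it was 3 of the 9, beside 669 of the 16153. The limma call of CHST15 was not made without SHC4 replicate 2 (log2 fold change 5.14) or without replicate 3 (5.12), where 2 genes in all were called. Because CHST15 was picked for this difference, these counts are not independent evidence of it and nothing is read from them.

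**Figure D1:**
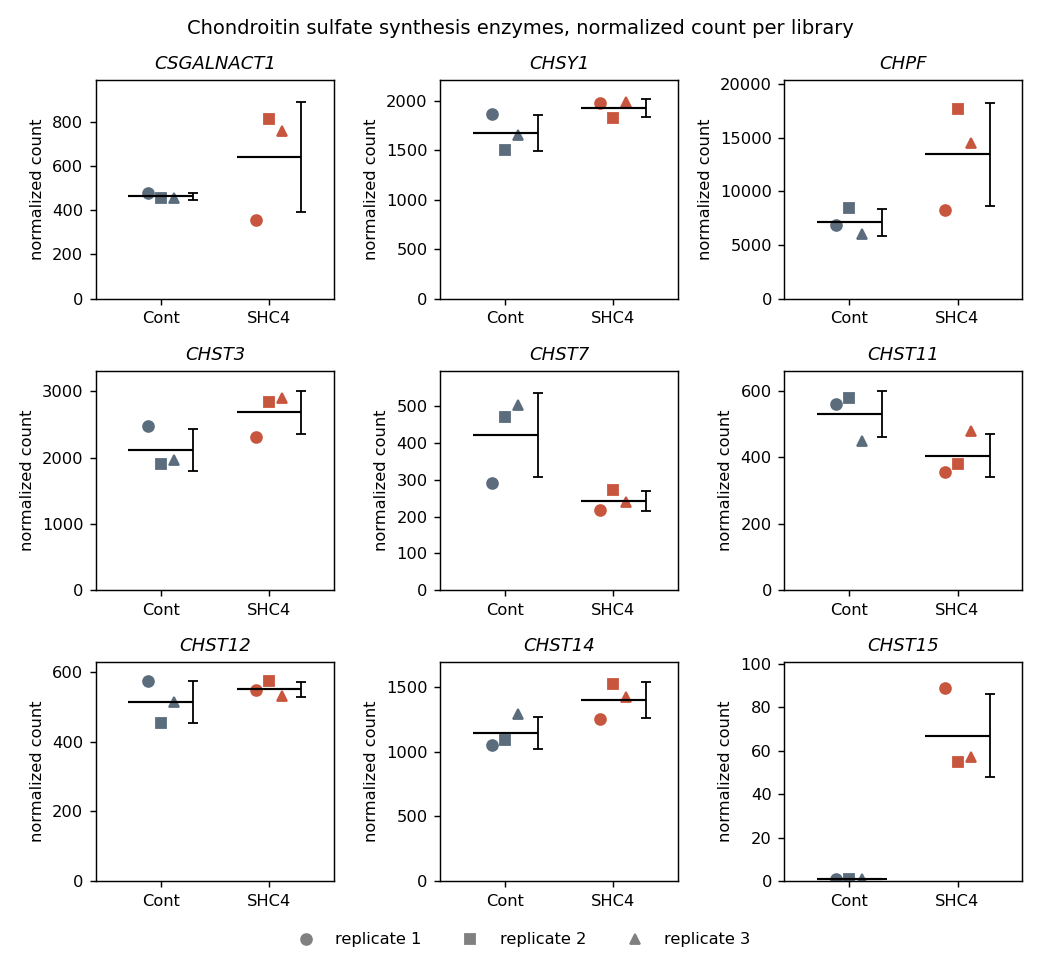
Normalized count (vertical axis, from 0, a separate scale per gene) of 9 chondroitin sulfate enzymes in 3 UE7T-9 Cont and 3 UE7T-9 SHC4 libraries. Points are libraries with a shape for each replicate number, lines are group means and bars are the SD. CHST15 is near 1 in all controls and between 54.9 and 88.8 in UE7T-9 SHC4, CHST7 is lower in all 3 UE7T-9 SHC4 libraries, and the groups overlap in the other 7 panels.

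The enzymes that place the first sulfate at carbon 6 differed from each other in direction. CHST7 (ENSG00000147119, chrX:46573784-46598408, plus strand) was at 290.5, 471 and 504 in the controls and at 219, 273 and 239 in SHC4 cells. All 3 SHC4 libraries lay below all 3 controls, and control replicate 1 was the control closest to them. The means were 422 ± 115 and 244 ± 27.4 (SD, n = 3 each), which put the log2 fold change at -0.76 (standard error 0.22, 95% interval -1.25 to -0.26). Leaving out control replicate 1 gave -1.0, past the threshold for a call, and leaving out replicate 1 of both groups gave -0.93. Over all fits that left out a library, the values ran from -1.0 to -0.61, the latter without control replicate 3.

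CHST3 (ENSG00000122863, chr10:71964365-72013564, plus strand), which can also sulfate keratan sulfate, was at 2477, 1901 and 1968 in the controls. It was at 2313, 2833 and 2898 in SHC4 cells. SHC4 replicate 1 lay below control replicate 1, so the groups overlapped, while SHC4 replicates 2 and 3 lay above every control. From means of 2116 ± 315 and 2681 ± 321 (SD, n = 3 each), the log2 fold change was 0.34 (standard error 0.15, 95% interval 0.01 to 0.68). It was 0.27 to 0.46 with each library left out, the highest without control replicate 1, and 0.57 without replicate 1 of both groups.

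Among the enzymes that place sulfate at carbon 4, none of the 3 with values separated the groups. CHST11 (ENSG00000171310, chr12:104455295-104762014, plus strand) was at 559.5, 578 and 450.5 in the controls and at 355, 380.4 and 479.8 in SHC4 cells. SHC4 replicates 1 and 2 lay below every control, and replicate 3 lay above control replicate 3. The means of CHST11 were 529 ± 68.9 and 405 ± 65.9 (SD, n = 3 each), giving a log2 difference of -0.39 (standard error 0.17, 95% interval -0.76 to -0.02), which ran from -0.52 to -0.30 with each library left out (-0.34 without control replicate 1) and was -0.26 without replicate 1 of both groups. CHST12 (ENSG00000136213, chr7:2403560-2448483, plus strand) was at 575, 453 and 512.5 in the controls and at 547.5, 573 and 531 in SHC4 cells. The highest CHST12 value was in a control and the groups overlapped, with means of 514 ± 60.9 and 550.4 ± 21.0 (SD, n = 3 each). The log2 fold change of CHST12 was 0.11 (standard error 0.14, 95% interval -0.20 to 0.41), and 0.19 both without control replicate 1 and without replicate 1 of both groups. It was 0.019 without control replicate 2 and 0.0027 under library size scaling.

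CHST14, the dermatan 4-O-sulfotransferase (ENSG00000169105, chr15:40470998-40474571, plus strand), was at 1053, 1090 and 1289 in the controls. It was at 1248, 1525 and 1422 in SHC4 cells. The groups overlapped only through the highest control and the lowest SHC4 library. Its means were 1144 ± 127 and 1398 ± 140 (SD, n = 3 each), which put the log2 fold change at 0.29 (standard error 0.13, 95% interval -0.01 to 0.59). The values ran from 0.23 to 0.38 with each library left out (0.23 without control replicate 1), and it was 0.31 without replicate 1 of both groups.

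The genes of the set for chain start and polymerization (CSGALNACT1, CHPF and CHSY1) had log2 fold changes above 0, with groups that overlapped. Outside the set, the paralogs CSGALNACT2 and CHPF2 were at -0.19 and -0.25, and the paralog CHSY3 was at 0.55. CSGALNACT2 was named after its values were seen. CSGALNACT1 (ENSG00000147408, chr8:19404161-19758029, minus strand) was at 478, 453 and 454 in the controls and at 356, 810 and 757 in SHC4 cells. SHC4 replicate 1 lay below every control, and replicates 2 and 3 lay above every control, so the spread within SHC4 cells was far wider than within the controls (462 ± 13.7 against 641 ± 248, SD, n = 3 each). The CSGALNACT1 log2 fold change was 0.38 (standard error 0.28, 95% interval -0.24 to 1.0), and it was 0.41 without control replicate 1. It was 0.76 without SHC4 replicate 1 and 0.79 without replicate 1 of both groups, but 0.17 without SHC4 replicate 2 and 0.22 without SHC4 replicate 3.

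CHPF (ENSG00000123989, chr2:219538947-219543787, minus strand), the polymerizing factor, was at 6884, 8445 and 6005 in the controls and at 8245, 17662 and 14534 in SHC4 cells. SHC4 replicate 1 was within the range of the controls, while replicates 2 and 3 were above all of them. The means were 7111 ± 1236 and 13480 ± 4796 (SD, n = 3 each). That is a log2 fold change of 0.87 (standard error 0.27, 95% interval 0.26 to 1.48), 0.85 without control replicate 1 and 1.17 without replicate 1 of both groups. With each library left out it ran from 0.64 (without SHC4 replicate 2) to 1.19 (without SHC4 replicate 1). CHPF shares 125 exon bases (3.73% of its exons) with TMEM198 on the other strand, whose mean normalized count was 90.2, and reads there cannot be assigned if counting ignored the strand. CHSY1 (ENSG00000131873, chr15:101175723-101251932, minus strand), the chondroitin synthase, was at 1868, 1509 and 1661 in the controls and at 1980, 1826 and 1991 in SHC4 cells. The CHSY1 groups overlapped through control replicate 1. Its means were 1679 ± 180 and 1933 ± 92.2 (SD, n = 3 each), giving a log2 difference of 0.21 (standard error 0.12, 95% interval -0.07 to 0.49), or 0.29 without control replicate 1 and 0.27 without replicate 1 of both groups. The CHSY1 value was 0.13 without control replicate 2 and 0.10 under library size scaling.

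**Figure D2:**
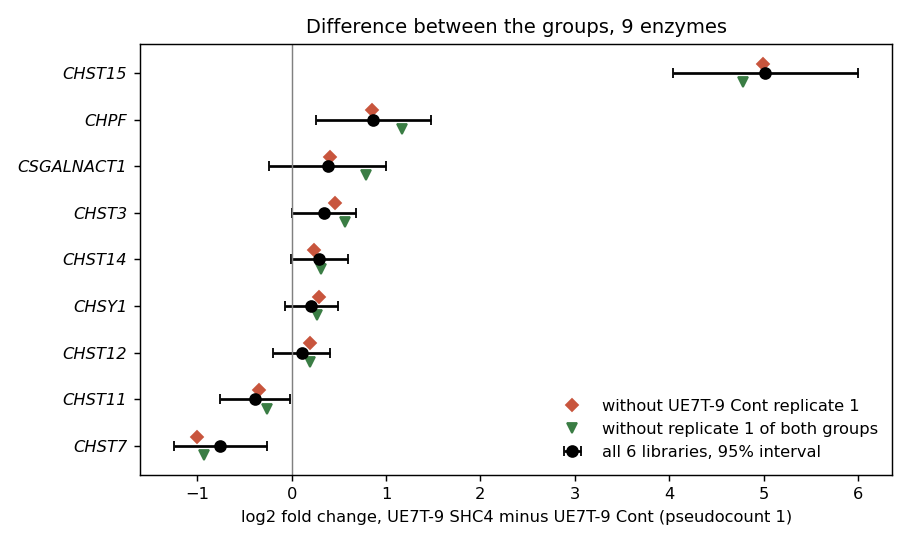
Log2 fold change of the 9 enzymes (horizontal axis, UE7T-9 SHC4 minus UE7T-9 Cont on log2(normalized count + 1)). Circles with bars are the values from all 6 libraries with their 95% intervals, diamonds leave out UE7T-9 Cont replicate 1 and triangles leave out replicate 1 of both groups. CHST15 lies at 5.02, CHPF and CHST7 lie furthest from 0 among the other 8 (0.87 and -0.76), and no point changes side.

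Over the 9 enzymes, 7 log2 fold changes were above 0 and 2 below, with a median of 0.29, against a median of -0.004 over all genes tested. Under library size scaling, which moved the median of all genes to -0.10, the median of the enzymes was 0.19, and with TMM normalization it was 0.30. The same 7 and 2 kept their signs under both. The groups did not overlap for 1 of the 9 enzymes that was higher (CHST15) and 1 that was lower (CHST7), beside 9.13% and 10.2% of all genes tested. Without control replicate 1, limma called 2 of the 9, CHST15 and CHST7, where it called 3.06% of 23087 genes in either direction.

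Levels between genes were compared per kilobase of annotated exons. In UE7T-9 Cont, CHPF was at 2120 ± 368 normalized counts per kilobase (SD, n = 3), above all other enzymes. CHST14 (320 ± 35.5), CHST3 (304 ± 45.2) and CHSY1 (302 ± 32.4) followed, and neighbours in this order overlapped. CHST7 came next at 184 ± 50.2, then CHST11 (81.5 ± 10.6) and CSGALNACT1 (70.2 ± 2.09), which overlapped each other, then CHST12 (31.8 ± 3.78). CHST15 was last at 0.159 ± 0.0175. In UE7T-9 SHC4 the 4 highest enzymes stood in the same order, with CHPF at 4019 ± 1430 and CHST14, CHST3 and CHSY1 at 391 ± 39.2, 385 ± 46.0 and 348 ± 16.6. CHST7 (106 ± 12.0), CSGALNACT1 (97.4 ± 37.7) and CHST11 (62.4 ± 10.2) now formed a run in which each overlapped the next. CHST12 was at 34.1 ± 1.30, and CHST15 was still last at 10.2 ± 2.89, below every library of every other enzyme. The place of CHST12 depends on its length, because the exons of its annotated transcripts cover 16143 bases whereas a shorter annotated transcript of the gene has 2131. By the latter CHST12 would be at 241 per kilobase in the controls and 258 in SHC4 cells. Other places also depend on length. With the longest transcript annotated as principal, CHSY1 would be at 369 in the controls and 425 in SHC4 cells. That is above CHST14 (320 and 391). CSGALNACT1 would be at 109 and 151, above CHST11 (92.7 and 71.0) in both groups and above CHST7 (106) in SHC4 cells. CHPF and CHST15 would keep the first and last place.

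**Figure D3:**
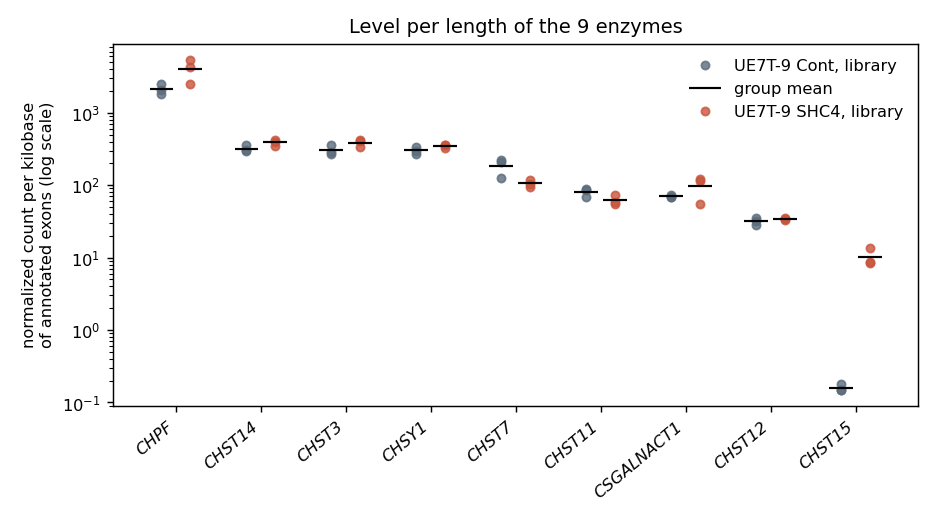
Normalized count per kilobase of annotated exons (vertical axis, log scale) of the 9 enzymes, by group. Points are libraries and lines are group means. CHPF is highest in both groups, and CHST15 is lowest in both, with means of 0.159 (UE7T-9 Cont) and 10.2 (UE7T-9 SHC4).

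The make-up of the sulfotransferases was then taken as each gene's share of the summed level per length of CHST3, CHST7, CHST11, CHST12, CHST14 and CHST15. CHST15 held 0.0165%, 0.0199% and 0.0156% of the sum in control replicates 1, 2 and 3, and 1.54%, 0.795% and 0.842% in SHC4 cells. The share was therefore higher in every SHC4 library and yet a small part of the whole. CHST7 held 14.1%, 22.8% and 22.8% in the controls and 10.9%, 11.3% and 10.1% in SHC4 cells, lower in all 3. CHST3 held 39.5%, 30.3% and 29.3% against 37.8%, 38.5% and 40.2%, which overlapped, and CHST14 held 32.8%, 33.9% and 37.4% against 39.7%, 40.5% and 38.5%, which did not.

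The carbon 6 enzymes CHST3 and CHST7 together held 53.7%, 53.1% and 52.1% in the controls and 48.6%, 49.8% and 50.3% in SHC4 cells. The carbon 4 enzymes CHST11, CHST12 and CHST14 held 46.3%, 46.9% and 47.9% in the controls and 49.8%, 49.4% and 48.8% in SHC4 cells. The groups did not overlap in either share, and the gap between the nearest libraries was small. Together with the small CHST15 share these make up the whole, so a shift in one largely mirrors the other and is not a separate result. With the shorter CHST12 length, the carbon 6 share was 42.6%, 44.1% and 42.8% against 38.8%, 40.8% and 41.6%, again without overlap. The carbon 4 share was then 57.4%, 55.9% and 57.2% against 60.0%, 58.5% and 57.7%. Which of both shares was larger in the controls thus depended on that length, while the direction of the difference did not. These are shares of mRNA, and sulfation of the chains is not measured by them.

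**Figure D4:**
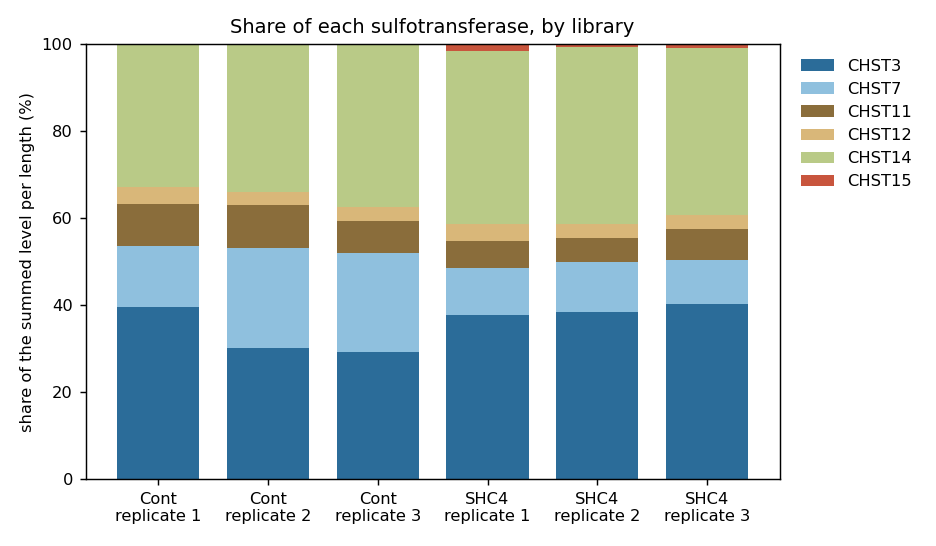
Share of each sulfotransferase in the summed level per length of 6 sulfotransferase genes (vertical axis, percent), one stacked bar for each of the 6 libraries. CHST7 takes 14.1% to 22.8% of the UE7T-9 Cont bars and 10.1% to 11.3% of the UE7T-9 SHC4 bars, and CHST15 is visible only in UE7T-9 SHC4, at 0.795% to 1.54%.

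Further genes of the pathway were counted in lists set by role, and limma called 0 of the 37 tested genes in 5 chondroitin sulfate lists. DESeq2 and edgeR on the recovered reads also called 0 of them. At an unadjusted p below 0.05 there were 8, of which 6 were higher and 2 lower, beside 3323 of all 23040 genes. The log2 fold change was above 0 in 24 and below 0 in 13, with a median of 0.16, or above 0 in 22 with a median of 0.06 under library size scaling. The groups did not overlap for 4 of the 37 that were higher and 2 that were lower, beside 9.13% and 10.2% of all genes. Without control replicate 1, 5 of the 37 were called, beside 3.06% of all genes, all of them core proteins.

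Of 6 further chain enzymes, 3 were above and 3 below 0 (median log2 fold change 0.08, or -0.03 under library size scaling). CHSY3, a paralog of CHSY1, was at 585, 551 and 531 in the controls and at 625, 868 and 987 in SHC4 cells, higher without overlap. Its log2 fold change of 0.55, with a standard error of 0.17, had a limma adjusted p of 0.219. CHPF2, a paralog of CHPF and the highest of the list per length, was at 3122, 3907 and 3586 against 2878, 2983 and 3054. That is lower without overlap, in the opposite direction from CHPF, with a log2 fold change of -0.25 (limma adjusted p = 0.417). The epimerases DSE and DSEL, which turn chondroitin into dermatan, had log2 fold changes of -0.01 and 0.16 with overlapping groups, and were named after their values were seen.

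The 7 linkage region genes, which build the sugar linker that chondroitin and heparan sulfate share, had a median log2 fold change of 0.16, with 5 above 0, and the groups overlapped in all 7. The highest of them per length over both groups together, the glucuronyltransferase B3GAT3, had a log2 fold change of -0.24 (limma adjusted p = 0.46). The 9 genes of sulfate donor and sugar nucleotide supply had 4 values above 0 and 5 below, with a median of -0.01. SLC35B2, which carries PAPS into the Golgi, was the highest of these per kilobase of annotated exons over both groups together. It was also the largest difference without overlap, at 2962, 3436 and 3200 in the controls and 2612, 2205 and 2518 in SHC4 cells. Its log2 fold change was -0.39 (standard error 0.13, limma adjusted p = 0.225). In SHC4 cells alone UGDH was higher per kilobase (1234 against 1035 for SLC35B2), and was named after its values were seen. Of 9 breakdown genes, 8 were above 0 with a median of 0.24 (6 and 0.14 under library size scaling), and the groups overlapped in all 9.

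The core proteins that carry chondroitin or dermatan sulfate chains had the widest spread, with 4 of 6 above 0 and a median of 0.89. ACAN, the aggrecan core protein of cartilage, was at 11490, 7726 and 695.5 in the controls and at 29035, 38276 and 54052 in SHC4 cells. All 3 SHC4 libraries lay above all controls, which themselves spanned a wide range. Its log2 fold change was 3.31 (standard error 0.86, limma adjusted p = 0.18), and 4.08 without control replicate 1 (limma adjusted p = 0.0185). It was 2.06 without control replicate 3, the lowest of the controls, and 2.61 in DESeq2 (adjusted p = 0.114). SRGN, the serglycin core protein of secretory granules and the highest per length, had a log2 fold change of -0.71 with overlapping groups (limma adjusted p = 0.288), and -1.02 without control replicate 1 (limma adjusted p = 0.0186). With all 6 libraries, DCN, VCAN and BGN (decorin, versican and biglycan) had overlapping groups and log2 fold changes of 1.11, 0.77 and 1.02 (limma adjusted p = 0.242, 0.317 and 0.596). Without control replicate 1 they were also called higher, at 1.43, 1.2 and 2.06 (limma adjusted p = 0.041, 0.00343 and 0.0291). That library was the highest control for each, at 24449, 8665 and 25349, so leaving it out could only raise these values. With any other library left out, 0 core proteins were called. The lowest log2 fold change with a library left out was 0.69 for DCN and 0.51 for VCAN. BGN was at 0.09 without control replicate 3 and at 0.26 in DESeq2 (adjusted p = 0.939), so its value rested on single controls.

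**Figure D5:**
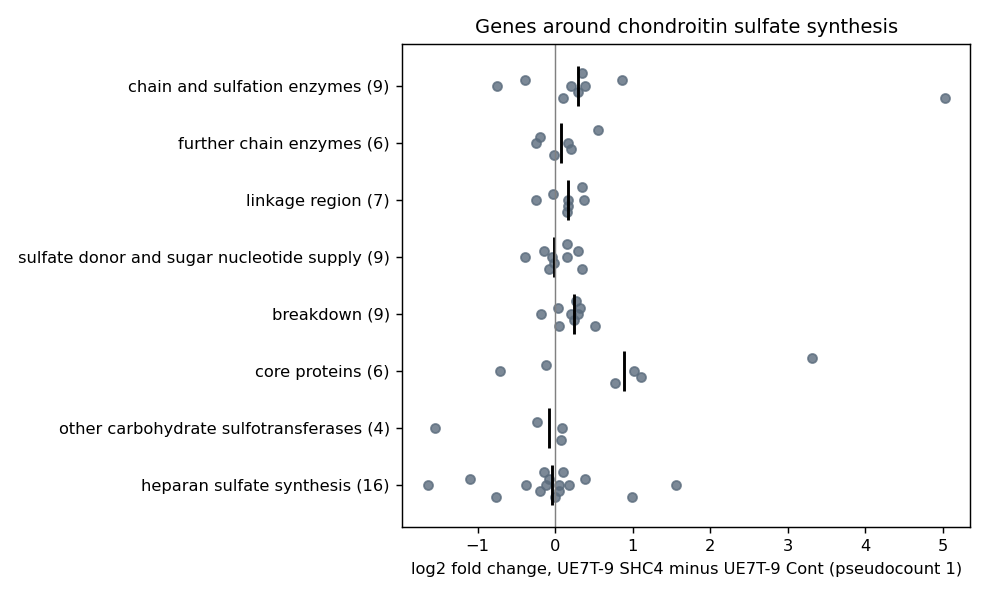
Log2 fold change (horizontal axis, UE7T-9 SHC4 minus UE7T-9 Cont on log2(normalized count + 1)) of the 9 chondroitin sulfate enzymes and of 7 lists of related genes, with the number of genes tested in brackets. Points are genes and vertical lines are list medians. CHST15 (5.02) and ACAN (3.31) lie furthest to the right, and the median of each list other than the core proteins (0.89) lies between -0.08 and 0.29.

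For comparison, heparan sulfate, the other branch from the same linker, was represented by 21 genes, of which 16 were tested. limma called 0 of them in either direction, edgeR called 0 and DESeq2 called 1, beside 2.2% of all genes in DESeq2. An unadjusted p below 0.05 was found for 2 of the 16, and for 3323 of all 23040 genes. There were 7 values above 0 (5 under library size scaling) and 9 below, with a median of -0.04, and the groups did not overlap for 4 that were lower and 0 that were higher, beside 10.2% and 9.13% of all genes. HS3ST3A1, which places a rare sulfate at carbon 3 of glucosamine, was the gene called by DESeq2. It was at 128, 174 and 152.5 in the controls and at 53.6, 42.5 and 47.7 in SHC4 cells, which put the log2 fold change at -1.63 (standard error 0.23, limma adjusted p = 0.0549). The adjusted p was 1.06e-06 from DESeq2 and 0.0839 from edgeR, with all libraries kept. limma called the gene under library size scaling (adjusted p = 0.0482), with TMM normalization (0.0467), with no filter, without control replicate 1 (0.0058), without SHC4 replicate 1 and without replicate 1 of both groups (0.00394). It did not call the gene with a minimum mean of 10, with pseudocount 0.1 or with the replicate block. Nor was the gene called without control replicate 2 or 3, or without SHC4 replicate 2 or 3. EXT2, a heparan sulfate polymerase subunit and the highest per length, had a log2 fold change of -0.38 (limma adjusted p = 0.386). Of 8 other carbohydrate sulfotransferases, which act on keratan sulfate or other glycans, 4 were tested and limma, DESeq2 and edgeR called 0, with 1 at an unadjusted p below 0.05. Of the 4, 2 were above 0, and 0 under library size scaling. CHST1, a keratan sulfate sulfotransferase, was at 28.3, 36.5 and 40.3 in the controls and 22.0, 5.83 and 10.5 in SHC4 cells. The values in SHC4 cells came from 25, 7 and 9 reads. Its log2 fold change was -1.55 (standard error 0.49, limma adjusted p = 0.216). The adjusted p was 0.105 in limma without control replicate 1, 0.128 in DESeq2 and 0.215 in edgeR. It was 0.0315 in limma without replicate 1 of both groups. CHST2, the highest of these per length, had a log2 fold change of -0.23 (limma adjusted p = 0.636).

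The genes whose log2 values ran most like those of CHST15 across the 6 libraries were FHIP2B, AC068305.1, SHC4, AC024075.2 and WARS2, with Pearson's r of 0.995, 0.994, 0.993, 0.992 and 0.987 among 15856 genes with a mean of at least 10. A gene chosen for likeness to CHST15 has to separate the groups, since CHST15 is near 1 in every control, and the values of a library share its depth and scaling. FHIP2B was at 1029, 1088 and 1071 in the controls and 1469, 1395 and 1399 in SHC4 cells, a difference of 0.42 on the log2 scale. AC068305.1 was at 0 in all controls and at 36.0, 42.5 and 37.3 in SHC4 cells.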

How the data were processed

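RNA was extracted with RNeasy from 3 UE7T-9 Cont and 3 UE7T-9 SHC4 samples, made into libraries with a NEBNext Ultra RNA kit and sequenced on a NovaSeq system. The deposited files give a signal for each gene, which is a normalized count, that is, the reads of the gene over the size factor of its library. The submitters' processing notes name HISAT2 2.0.5, featureCounts 1.5.0-p3 and DESeq2. The genome build, the annotation and the strand setting are not given in the sources used here. Reads were recovered by division (100% of values whole within 0.01). Depth and the value of 3 reads are given with the results.

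Symbols were found for all 28181 identifiers, and positions are from GENCODE 29 on GRCh38, matched by identifier. Genes with a mean of at least 1 (23040, leaving out 5141) were tested with limma 3.58.1 on log2(value + 1), using R 4.3.3, lmFit, a trended eBayes step and Benjamini-Hochberg adjustment, after it was tested on simulated data. Alternatives were DESeq2 1.42.0 and edgeR 4.0.16 on the recovered reads, other scalings, filters and pseudocounts, a replicate block and leaving out each library. Leaving out replicate 1 of both groups was added after the data were seen.

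The enzymes and lists were chosen with earlier results of these data known. Named genes were all enzymes of the set, the 5 genes most like CHST15, and SHC4. In each list, any called gene was named, or else the largest change among those without overlap. The gene with the highest level per length over both groups together was named too. Pathway genes outside this rule are marked or follow from a count. A breakdown gene that the rule names is not reported here.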

Additional observations from a re-analysis of the deposited data

How the results depend on the processing

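CHST15 was higher in UE7T-9 SHC4 under all 15 alternatives. These re-use the libraries in which it was picked, so they are not evidence of the difference. The CHST15 log2 fold change was 5.84 with a pseudocount of 0.1, 6.01 in DESeq2 and 5.86 in edgeR, and 4.80 to 5.14 with each library left out. For the other 8 enzymes, 0 of 120 alternative values changed sign. Of these, 1 moved by more than the spread between replicates (CHST3, 0.57 without replicate 1 of both groups). The other filters on low values and the replicate block cannot alter a log2 fold change here. Their values equal those of the main fit, and they are counted among the alternatives. The number of enzymes called was 0 to 2 with a library left out and 2 without replicate 1 of both groups, and that of the 37 pathway genes was 0 to 5 and 4. Beside these, 2 to 706 and 872 of all genes were called in either direction. Over all genes, limma called 12 higher and 2 lower. Library size scaling gave 22 and 6, TMM normalization 20 and 4, no filter 31 and 9, and DESeq2 170 and 185. With pseudocount 0.1 or in edgeR, 1 was called lower. Leaving out a library gave 1 to 367 higher and 0 to 339 lower, with the highest without UE7T-9 Cont replicate 1. Without replicate 1 of both groups there were 494 and 378. The cause of these shifts was not tested.

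With the replicate number as a block, 25 genes were called higher and 14 lower, and still 1 of the 9 enzymes and 0 of the 37 pathway genes. As a check of the pairing, each library's deviations from its group mean were correlated with those of the library of the same number, which gave 0.148, 0.013 and -0.00696 across genes. Not every value was above 0.1, so the numbers were not taken to pair the libraries, although the replicate 1 libraries deviated together to some extent.

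Depth limits CHST15 in the controls, where a single read per library was found, and 3 libraries per group limit all tests.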
